A study of Mus musculus with 1012 samples.

Results

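The cells described here were whole, LPS-treated RAW-G9 macrophages profiled 1 cell at a time by Smart-seq2, a full-length single-cell RNA sequencing method without molecular identifiers. They were chosen by their labels alone, as libraries made from whole cells, from Raw264.7_G9 and from the LPS treatment. This gave 14.7% of the 1012 libraries of the series. It was 26.9% of its whole-cell libraries when those of the experiment on IBA cells after Live-seq are left out. RAW264.7 is a mouse macrophage-like line, and RAW-G9 is a single clone of it that carries mCherry under the Tnf promoter and an EGFP-Rela fusion. A single clone limits how far its values stand for other macrophages. The cells had been exposed to LPS at 40 ng/ul according to the series' design text, then trypsinized, held on ice and sorted as live single cells. The study's methods name a far lower LPS concentration for RAW cells, so the dose is uncertain. They give a time after LPS addition for cells extracted by Live-seq, and that of these whole cells is not given in the sources used here. They fell into 3 labelled batches, with 88 cells in batch scRNA, 15 in batch 8_8 and 46 in batch 9_1. The labels tie no cell to a culture, so cells of a batch may share their source and the batch was taken as the replicate throughout. Spread and covariation are therefore descriptions within each batch and carry no p value. The 1 group set beside them was IBA, an untreated mouse mesenchymal line sorted in the same 3 batches, with 93, 15 and 45 cells. RAW-G9 cells without LPS are not compared here.

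LPS is a component of the outer membrane of Gram-negative bacteria that macrophages sense through Cd14, Ly96 and Tlr4. The receptor releases NF-κB, including its Rela subunit, from inhibitors such as Nfkbia, and NF-κB then drives cytokine and chemokine genes together with genes that switch the pathway off again. A separate branch induces interferon, whose target genes include Usp18 and the Oas family. Single macrophages of one culture are known to differ widely in these outputs.

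Total counts ran from 176393 to 1418783 per cell with a median of 446191, and medians by batch were 407982, 368109 and 909498 in batches scRNA, 8_8 and 9_1. Between 3116 and 9976 genes were detected per cell. No 2 cells of a batch held identical values, and the median correlation between cells of a batch was 0.83, 0.76 and 0.84. The label was checked against Tnf, Acod1, Cxcl2, Clec4e and Ccl4. These were each counted in all cells or all but 1, except Cxcl2, which 16 cells lacked, whereas only 1, 8, 4, 11 and 3 IBA cells had a count. Of 12 macrophage identity genes, 10 were counted in at least 90% of the cells of every batch, while Itgam and Adgre1 were counted in 12 and 19 cells. Of 10 mesenchymal markers, 8 were counted in under 10% of cells, with Pdgfra and Dcn at 0. The summed mesenchymal level had a median of 0, 0 and 1.35 CPM by batch, where CPM are counts scaled to 1000000 kept counts per cell, and reached 208.3 CPM at most.

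A pair of libraries went against their labels. The cell sample678 of batch 9_1, labelled LPS-treated RAW-G9, had no count of Acod1, Cxcl2, mCherry or EGFP, and its Tnf level was 35.9 CPM against 374.2 to 8967 CPM in the other 45 cells of the batch. It held 51067 CPM of Lyz2, the lysozyme gene of macrophages, where no other cell of the batch passed 7691 CPM. The IBA cell sample532, also of batch 9_1, held 54 counts of Tnf and 14043 of Lyz2, where all other IBA cells together held 0 and 39, and its summed mesenchymal level was 0 CPM against at least 1055 CPM in every other IBA cell. Both were kept under their labels, and where a value below moves much with either, it is also given without it.

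Against IBA, a cell type with neither the macrophage identity nor the treatment, the LPS-treated cells showed the macrophage programme together with the inflammatory one. Counts were summed per batch and tested with edgeR's quasi-likelihood test with batch as a block. Of 13564 genes tested, 1728 (12.7%) were higher by over 1 on the log2 scale and 3069 (22.6%) were lower. Of 12 macrophage genes 10 were tested and all 10 were higher, and 9 of 10 mesenchymal genes were lower. A gene could enter through a single whole-cell state, by at least 2 counts in at least 15% of its cells. This favours such directions, so they are no independent support for the label. Cell type and treatment cannot be told apart in these counts. The median log2 change over all genes tested was -0.22.

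The inflammatory lists moved mostly up. Of 11 cytokine genes tested, 6 were higher and 2 lower, with Csf1 and Il1rn as the lower ones. Chemokines gave 6 higher and 3 lower of 11. All 5 NF-κB subunit genes and 13 of 20 feedback inhibitors were higher, 2 feedback inhibitors, the phosphatase genes Dusp1 and Dusp5, were lower, and 7 of 15 interferon-stimulated genes were higher with none lower. Pattern receptors and adhesion genes gave 10 higher and 1 lower of 16, immunometabolism genes 9 and 3 of 13, and glycolysis genes 7 and 0 of 12. The immediate early genes went the other way, with 0 higher and 8 lower of 12, and 11 of 17 G1/S and S phase genes were lower. The integrated stress response split, 2 higher and 2 lower of 9, and no G2 and mitosis gene of 18 passed in either direction. These lists were chosen with results of these cells known and their counts are no independent evidence of direction.

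Acod1, which makes itaconate, rose by a log2 fold change of 15.71 (SE 1.03, edgeR adjusted p = 1.085e-05). Each SE here is the size of the log2 change divided by the square root of the test's F statistic. The summed level of Acod1 was 5486, 4379 and 5694 CPM by batch in LPS-treated cells, against 0.279, 0 and 0.0636 CPM in IBA. With 11 counts in IBA, its ratio of summed counts was 34118 (exact 95% interval 19068 to 68347, for counting error only). Cxcl2, a neutrophil attractant, rose by 16.05 (SE 2.68, edgeR adjusted p = 0.00220), a value that rests on 5 counts in IBA and was 12.45 with no batch block, 12.79 with the sums of LPS-treated and IBA cells alone and 13.07 without batch 9_1. The plain ratio of its summed counts was 6843 (exact 95% interval 2932 to 21075, for counting error only). Rgs1, a regulator of G protein signalling, also rose (edgeR adjusted p = 4.763e-06), but with 1 count in IBA its ratio of 28407 has an exact 95% interval from 5098 to 1122070. A further 7 of the 10 largest rises had no count in any IBA cell. Set against a floor of 3 counts over all IBA cells, Il1b was at least 5110-fold higher, Il1a at least 2190-fold, Nlrp3, the inflammasome sensor, at least 4350-fold and Irf8, a myeloid transcription factor, at least 4909-fold. Ccl22, Ebi3 and mCherry were at least 2608-fold, 3225-fold and 34249-fold higher.

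The IBA cell sample532 set the size of several of these differences. Tnf rose by 11.85 with it (SE 1.30, edgeR adjusted p = 0.000172), and without it no IBA cell had a Tnf count, which makes Tnf at least 47195-fold higher against the same floor of 3 counts. The ratio of summed counts of Ccl3 was 3226 with it and 31139 without it (exact 95% interval 20753 to 49123), and that of Lyz2 was 10.98 and 3930. Ccl4 rested on 2 IBA counts without it, with a ratio of 99580 and an exact 95% interval from 27566 to 822267. The chemokines with opposite sign were Ccl7, Ccl2 and Cxcl1, at -13.11, -9.92 and -11.41. Those 3 attractants of monocytes and neutrophils were also among the genes counted in under 10% of the LPS-treated cells.

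Within the LPS-treated cells themselves, the chemokine Ccl3 stood at the top of the kept genes once levels were scaled by exon length. Genes of ribosomal proteins and those seen in negative controls were left out of this ranking. To compare genes with each other, the summed counts were divided by exon length and scaled to a fixed total per sum as TPM, given as mean ± SD over the 3 batches. Ccl3 (ENSMUSG00000000982, chr11:83647844-83649355), which recruits leukocytes, had the highest TPM of the kept genes in every batch, at 37971 ± 12079 TPM (n = 3). Its neighbour Ccl4 (ENSMUSG00000018930, chr11:83662584-83664683) reached 5060 TPM in batch scRNA, 5054 in batch 8_8 and 21888 in batch 9_1. Ccl9 was at 2373 ± 320 TPM. Without scaling by length Gm26917 stood above Ccl3, at a mean of 32611, 21973 and 18179 CPM by batch against 7524, 7348 and 14316 CPM.

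Among the other genes of the response, Acod1 (ENSMUSG00000022126, chr14:103046977-103056573) was at 6070 ± 936.5 TPM (n = 3). Cd14, the LPS co-receptor, was at 4528 ± 392.8 TPM and Tnf (ENSMUSG00000024401, chr17:35199381-35202007) at 3557 ± 741.96 TPM, 22nd, 29th and 22nd of the kept genes by batch. Nfkbia (ENSMUSG00000021025, chr12:55489410-55492647), the inhibitor that returns NF-κB to the cytoplasm, was at 2989 ± 612.3 TPM. Gpr84, a fatty acid receptor, was at 2311 ± 133 TPM and Clec4e (ENSMUSG00000030142, chr6:123281789-123289870), a C-type lectin that binds mycobacterial glycolipid, at 2078 ± 870 TPM. Tnf was above Nfkbia in each batch, at 3654, 2772 and 4246 TPM against 3351, 2282 and 3334 TPM, a difference that was not tested. Gpr84 changed its order with Nfkbia and with Clec4e between batches.

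Single cells covered a wide range around these sums. Ccl3 was counted in every cell, with a lowest, median and highest level of 1547, 7378 and 22894 CPM in batch scRNA, of 410, 6882 and 17242 CPM in batch 8_8, and of 717.6, 12290 and 41082 CPM in batch 9_1, where sample678 was the lowest. Tnf ran from 191.04 through a median of 1740 to 5630 CPM in batch scRNA, from 94.4 through 809.5 to 5263 CPM in batch 8_8, and from 35.9 through 1883 to 8967 CPM in batch 9_1. The ranges of the 3 batches overlapped for both genes. Acod1 ran from 731.8 through 4488 to 15071 CPM in batch scRNA and from 616.6 through 3657 to 8772 CPM in batch 8_8. In batch 9_1 its median was 5468 and its highest level 15976 CPM, and the lowest cell other than sample678 had 1746 CPM.

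Nfkbia was also counted in every cell. Its levels ran from 161.02 through 1445 to 4838 CPM, from 232.9 through 1196 to 2741 CPM and from 30.5 through 1561 to 5509 CPM in batches scRNA, 8_8 and 9_1. The mCherry transcript from the Tnf promoter reporter had medians of 1201, 866.3 and 1606 CPM and was missing only from sample678. EGFP, from the Rela fusion, had medians of 337.1, 99.7 and 203.4 CPM.

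**Figure D1:**
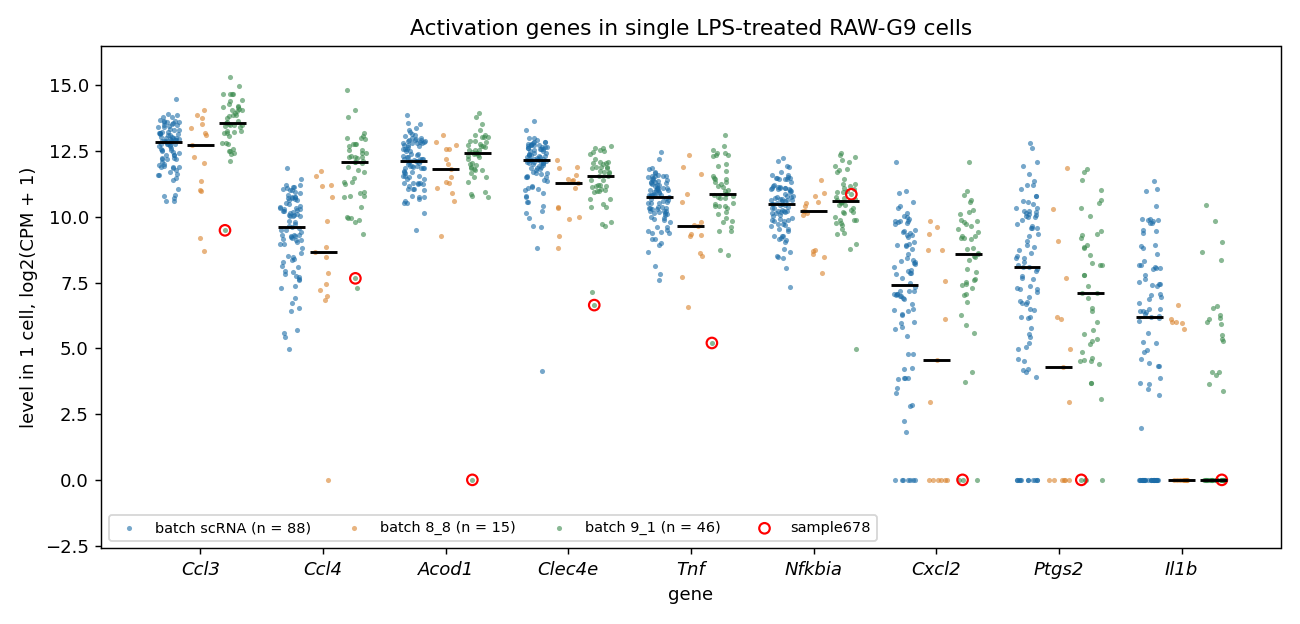
Level of 9 activation genes in each LPS-treated RAW-G9 cell, as log2(CPM + 1) on the vertical axis, by gene and batch (batch scRNA n = 88, batch 8_8 n = 15, batch 9_1 n = 46), with black bars at the medians and sample678 ringed. Ccl3, Tnf and Nfkbia were counted in every cell, while Il1b lay at 0 in 61 cells and Ptgs2 in 21.

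Other effectors were counted in some cells and not in others. Il1b, the main secreted interleukin 1, was counted in 62 of 88, 6 of 15 and 20 of 46 cells, and Il1a in 43, 3 and 14 cells. The highest Il1b level was 2632 CPM in batch scRNA, and the median was 72.7 CPM there and 0 in both other batches. Of the 60 cells with an Il1a count, 47 also held an Il1b count, and the correlation of the 2 genes was 0.69, 0.51 and 0.32 by batch. Nos2, the inducible nitric oxide synthase, was counted in 61, 4 and 34 cells, Csf3, a granulocyte growth factor, in 40, 2 and 24, and Ccl22 in 51, 6 and 6. A gene at 0 in a cell was not detected at that depth and need not be absent.

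Several list members, among them genes often used to mark an LPS response, were close to missing. Il6, Il10, Il12a, Il12b, Il23a, Csf2 and Il1rn were each counted in under 10% of the cells, as were Ccl2, Ccl7, Cxcl1 and Cxcl3. Among interferon genes the same held for Ifnb1, Ifit3, Rsad2 and Mx1, and among enzymes for Arg1, Ass1, Slc7a2 and Upp1. The costimulatory genes Cd80 and Cd86 and the immediate early genes Fosb, Nr4a1, Klf2 and Klf4 were also counted in under 10% of the cells. By contrast, 11 of 12 glycolysis genes were counted in at least 90% of the cells of every batch.

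Cell-to-cell spread was measured for the 7287 genes with a mean of at least 10 CPM and a count in at least 25% of cells in each batch. For each gene the squared coefficient of variation (CV) of CPM was compared with a trend over genes of like mean level, and the residual on the log2 scale is called excess spread. A gene was called variable when its excess spread was in the top 10% in all 3 batches, which held for 1.41% of genes. Clec4e was just inside this limit, at a lowest percentile of 90.01, and Myo1g just outside, at 89.8. Excess spread correlated between batches over genes, which are not independent, at 0.55 for scRNA with 8_8, 0.47 for scRNA with 9_1 and 0.31 for 8_8 with 9_1.

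Chemokines were called most often among the inflammatory lists. Of 6 chemokines entered, Ccl3, Ccl4, Ccl5, Ccl9 and Cxcl2 were variable, with a median excess spread of 2.52 against 0.01 for all genes entered. Ccl5, an attractant of T cells and monocytes, had a CV of 155.2, 191.9 and 157.5%, and Ccl3 one of 51.04, 74.7 and 55.6%. Of 5 cytokines entered, Tnf and Il27 were variable. The CV of Tnf was 54.8, 107.5 and 75.4%, and its excess spread averaged 2.26.

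Feedback and receptor genes were called in part. Nfkbia, Socs3, which curbs cytokine receptor signalling, and Atf3, a repressor of cytokine genes, were the 3 variable genes of 16 feedback inhibitors entered. Clec4e, Cd40, Cd83 and Icam1 were called among 14 receptor and adhesion genes, Acod1, Ptgs2 and Slc7a11 among 9 immunometabolism genes, and Oasl1 and Usp18 among 6 interferon-stimulated genes. None of the 5 NF-κB subunit genes, 12 glycolysis genes, 6 stress response genes or 4 immediate early genes was called. With 1.41% of all genes entered called, lists of this size could hold none without differing from them. Glycolysis had a median excess spread of -0.76, below that of all genes.

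Among the single lists, G2 and mitosis held the most variable genes. Of 18 G2 and mitosis genes entered, 12 were called, among them Top2a, which untangles DNA, the mitotic kinase genes Cdk1, Plk1 and Aurkb, and the proliferation marker Mki67. Of 13 G1/S and S phase genes, Mcm6 and Rrm2 were called. Top2a was counted in 70, 13 and 42 cells and ran from 0 through medians of 127.5, 336.8 and 300.1 CPM to 2374, 2339 and 1644 CPM.

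**Figure D2:**
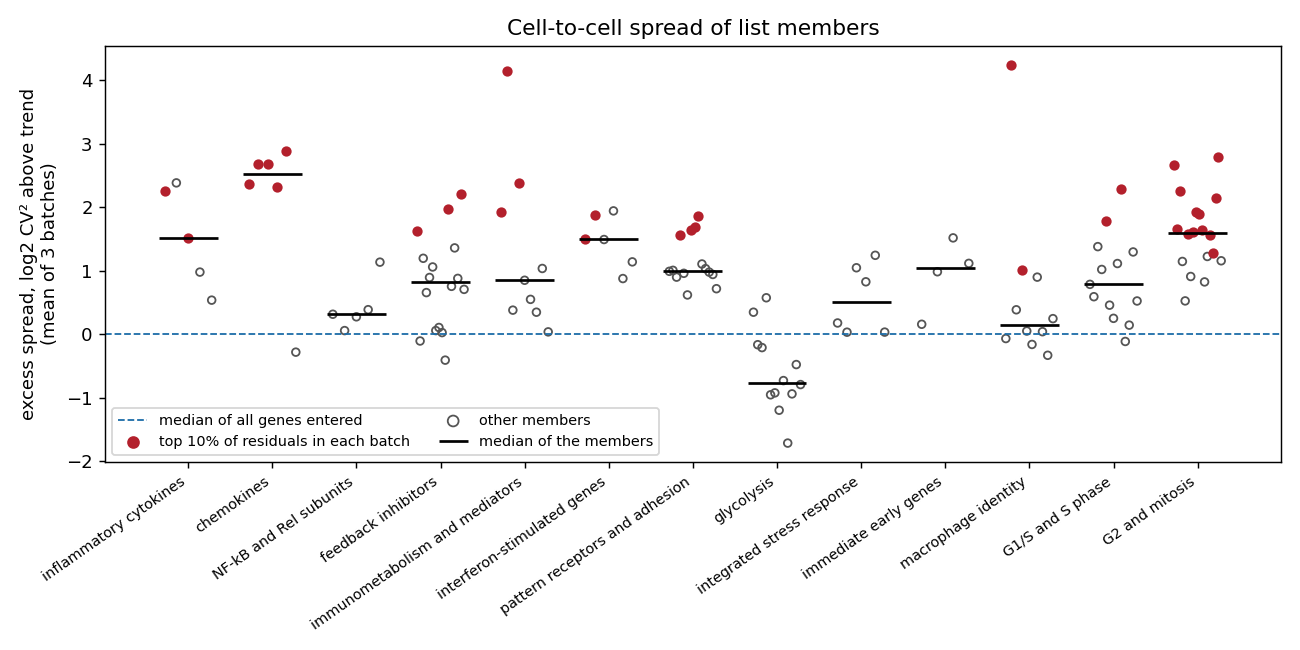
Excess cell-to-cell spread of each list member entered, as log2 of the squared CV above the trend averaged over 3 batches, with members called variable filled, others open, list medians as black bars and the median of all 7287 genes as a dashed line. Of the chemokines 5 of 6 and 12 of 18 G2 and mitosis genes are filled, and the glycolysis median of -0.76 lies under the dashed line at 0.01.

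The 10 variable genes with the largest excess spread were Lyz2, Spp1, Ptgs2, Hmox1, Gm26917, Plau, Cxcl2, Lpl, Ube2c and Rcan1, from 4.24 down to 2.76. They include the secreted phosphoprotein gene Spp1 at 4.23, Ptgs2, the inducible prostaglandin synthase, at 4.15, the haem oxygenase Hmox1 at 2.97 and the urokinase Plau at 2.95. Spp1 ran from 0 to 25852 CPM in batch scRNA around a median of 1671 CPM. Ptgs2 was counted in 77, 9 and 42 cells and reached 7092, 3690 and 3639 CPM, with medians of 272.6, 18.5 and 137.02 CPM. Without sample678 the excess spread of Lyz2 was 3.36 instead of 4.24, and 1.47% of genes were called, including every gene called with it.

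Covariation with Tnf was measured as Pearson's r across the cells of 1 batch on log2(counts per 10000 + 1). At r of at least 0.3 in all 3 batches, 13 of 7286 genes (0.178%) were called positive, and at r of -0.3 or less 1 gene (0.0137%) was called negative. Cells of a batch are not replicates, so these values describe the cells and are given without a test. The profile of r with Tnf over all genes was itself hardly shared between batches, with a correlation of -0.00 for scRNA with 8_8, 0.00 for scRNA with 9_1 and 0.21 for 8_8 with 9_1.

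The positive genes included the reporter, 1 of 5 NF-κB subunit genes and, of the 16 genes listed as feedback inhibitors, only Nfkbiz. The mCherry reporter had r of 0.45, 0.61 and 0.46 in batches scRNA, 8_8 and 9_1. Nfkbiz, a nuclear cofactor of NF-κB, had 0.41, 0.78 and 0.55, and Rela had 0.38, 0.69 and 0.43, with reads of the EGFP-Rela transgene possibly counted in it. Ccrl2, a chemerin-binding receptor, had 0.41, 0.48 and 0.49 and Slc2a6, a sugar transporter of the lysosome, had 0.34, 0.63 and 0.67. Junb, an AP-1 subunit, had 0.44, 0.84 and 0.53, but it overlaps Prdx2 on the opposite strand, and reads were counted without strand, which leaves its counts uncertain. The same holds for Atp6v1e1, which overlaps Slc25a18.

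Among chemokines, Ccl3 had r with Tnf of 0.50, 0.35 and 0.43 and Cxcl2 of 0.40, 0.31 and 0.36. Other positive genes were Ppp1r15a, Slfn2 and Gm49339. Pttg1, the securin gene of mitosis, was the negative gene, at -0.34, -0.34 and -0.42. Next to it by the value nearest to 0 were Clic1, Hmgb1, Opa1, Vps36, BC005537, Ccnb2, Nutf2, Mbnl1 and Ints1, of which Ccnb2 is another mitotic gene. Without sample678 BC005537 had r of -0.02 in batch 9_1 instead of -0.27. By Spearman's rho 9 genes were called positive, 7 of them among the 13, with Ccl3, Cxcl2, Slc2a6, Slfn2, Ppp1r15a and Gm49339 lost, and Ccnb2 was the negative gene in place of Pttg1.

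Nfkbia had r with Tnf of 0.73, 0.85 and 0.28 and so missed the limit in batch 9_1. In batch scRNA no gene had a higher r, and in batch 8_8 only Ier3 did, at 0.89. Sample678 holds a Nfkbia level of 1857 CPM beside its low Tnf, and without it r in batch 9_1 was 0.35. Leaving it out moved other values the other way. In batch 9_1, mCherry fell from 0.46 to 0.26, Ccl3 from 0.43 to 0.16, Cxcl2 from 0.36 to 0.28, and Ccl4 from 0.14 to -0.07. Without sample678, 11 genes were called positive. Of these, 10 were among the 13, Nfkbia was gained, and mCherry, Ccl3 and Cxcl2 were lost.

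**Figure D3:**
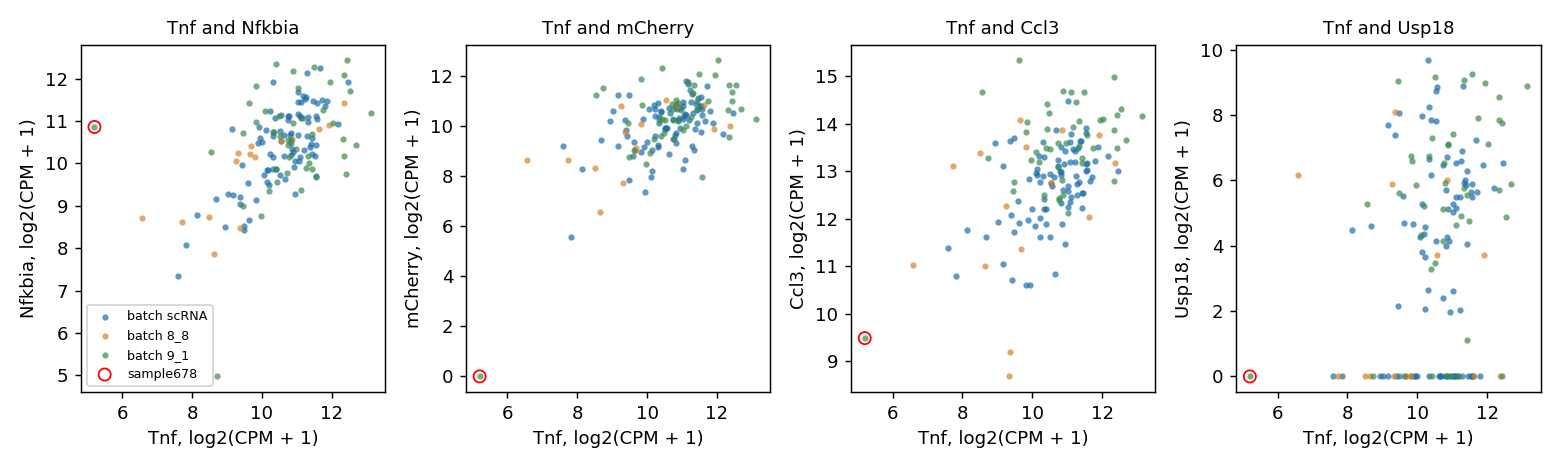
Tnf on the horizontal axis against Nfkbia, mCherry, Ccl3 and Usp18 on the vertical axes, each as log2(CPM + 1), with 1 point per cell coloured by batch and sample678 ringed. Nfkbia rises with Tnf in batches scRNA and 8_8 (r of 0.73 and 0.85), while Usp18 shows no shared direction (r of 0.07, -0.18 and 0.32).

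A looser count took every gene whose r with Tnf had the same sign in all 3 batches, which was positive for 1088 genes (14.9%) and negative for 11.2%. It was positive for 13 of 16 feedback inhibitors, 4 of 4 other cytokines, 5 of 6 chemokines, 7 of 9 immunometabolism genes and 9 of 14 receptor and adhesion genes, and negative for none of these. The feedback inhibitor list also holds the NF-κB cofactor gene Nfkbiz and the fatty acid receptor gene Gpr84, both among the 13. Without sample678 the chemokines gave 4 of 6, the feedback inhibitors 14 of 16 and the receptor and adhesion genes 8 of 14. NF-κB subunit genes gave 3 positive and 1 negative of 5, the latter being Nfkb1 at -0.10, -0.11 and -0.18. Tnfaip3, the A20 ubiquitin editor that damps NF-κB, had 0.27, 0.47 and 0.39, and Il27 had 0.28, 0.46 and 0.44. Interferon-stimulated genes gave 3 of 6 and glycolysis genes 4 of 12. Macrophage identity genes gave 0 positive and 3 negative of 10, or 1 and 2 without sample678, and G2 and mitosis genes 0 and 4 of 18.

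Genes of a list covaried with each other to very different extents. The median r over all pairs of the 7287 genes was 0.01, -0.00 and 0.02 by batch. It was 0.73, 0.59 and 0.62 among G2 and mitosis genes and 0.45, 0.22 and 0.47 among G1/S and S phase genes. Interferon-stimulated genes had 0.31, 0.18 and 0.34, chemokines 0.21, 0.31 and 0.27 and cytokines 0.18, 0.21 and 0.31. Feedback inhibitors stood lower, at 0.11, 0.18 and 0.13. Glycolysis, at 0.32, 0.21 and 0.53, and the integrated stress response, at 0.24, 0.08 and 0.48, varied most between batches.

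**Figure D4:**
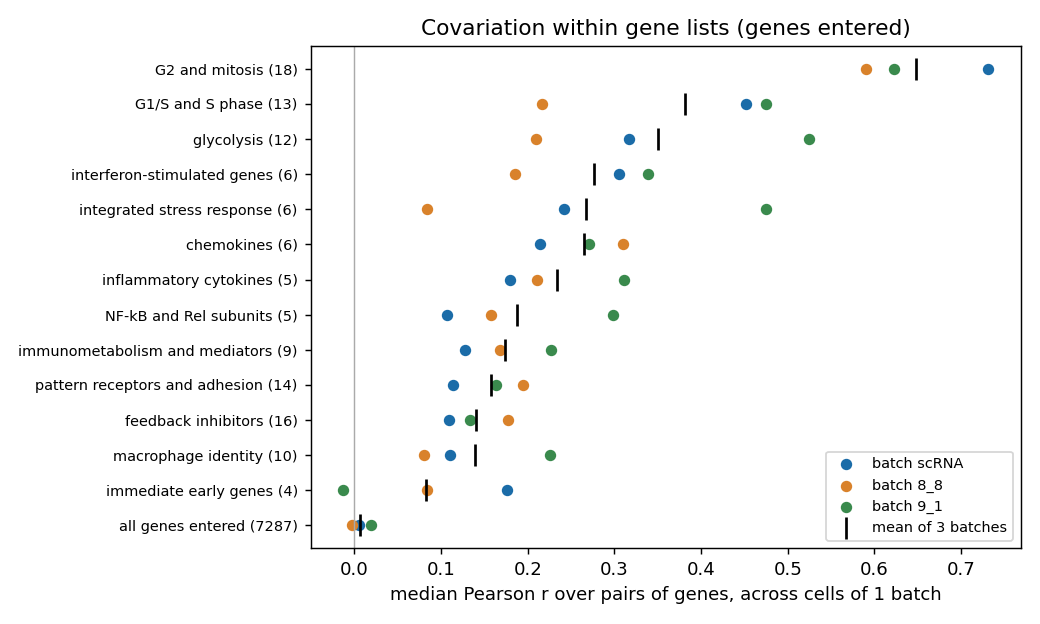
Median Pearson r over the pairs of genes of each list on the horizontal axis, by batch (coloured points) and averaged over batches (black ticks), with the number of genes entered in parentheses. G2 and mitosis genes lie at 0.59 to 0.73, chemokines at 0.21 to 0.31, and all genes entered at -0.00 to 0.02.

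Each list was also averaged to a score per cell. The score of cytokines and chemokines rose and fell with that of the feedback inhibitors, at r of 0.45, 0.75 and 0.54. With the interferon-stimulated score it had 0.35, 0.09 and 0.37. Its relation to the cell cycle had no shared sign, at -0.37, 0.29 and 0.11 with G2 and mitosis and -0.16, 0.47 and -0.21 with S phase, and the same was true for macrophage identity, at 0.14, -0.43 and -0.14. With the number of genes detected it had -0.30, 0.16 and 0.05. The macrophage identity score was lower in cells with more genes detected in all 3 batches, at -0.42, -0.32 and -0.57, and the G2 and mitosis score higher, at 0.45, 0.26 and 0.33. The part of gene detection in the list values was not tested.

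The leading component of all 7287 genes held 5.55, 11.9 and 17.9% of the variance by batch. Its cell scores correlated with genes detected at 0.82, 0.74 and 0.40, and its gene loadings with exon length at a Spearman rho of 0.24, 0.20 and 0.33, the sign of the component being set so that the latter is positive. With the cytokine and chemokine score it had -0.40, 0.23 and -0.21, and -0.41 in batch 9_1 without sample678.

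A count of all pairs of genes was added after the data were seen. Of 26546541 pairs, 2597 (0.00978%) had r of at least 0.5 in every batch and are called linked. They joined 6.70% of the genes entered, and 16 sets of at least 3 genes formed. The genes named from these sets were chosen by this result. Tnf and Nfkbia were in no linked pair.

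The largest set held 71.3% of the joined genes and 2493 of the linked pairs. All 18 G2 and mitosis genes and 7 G1/S and S phase genes belonged to it, and its best connected genes were Ccna2, with 88 partners, Top2a, with 76, and Ccnb1, with 75. Cdk1 and Top2a, for example, had r of 0.89, 0.82 and 0.84. The set also reached Tubb5, Ppia and respiratory chain genes such as Cox8a and Ndufa4.

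A set of 12 genes consisted of interferon-stimulated genes and was the same without sample678. Its members were Oas3, Oas2, Oas1a, Oasl1, Usp18, Ddx58, Rnf213, Trafd1, Helz2, Ifi44, Rtp4 and Lgals3bp. Oas3 makes the activator of the RNase L antiviral pathway, Usp18 restrains interferon receptor signalling and Ddx58 encodes the RNA sensor RIG-I. Usp18 and Oas3 had r of 0.64, 0.85 and 0.51, whereas Tnf and Oas3 had 0.12, 0.10 and 0.30. Usp18 was counted in 60, 6 and 38 cells, and the highest levels were 816.2, 274.7 and 611.8 CPM.

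A set of 11 genes held mCherry with Ccrl2, Clec4e, Slc2a6, Slfn2, Atp6v1e1, Cst7, Icam1, Igsf6, Malt1 and Ppp1r15a. The reporter and Slc2a6 had r of 0.72, 0.85 and 0.52, and Clec4e and Slc2a6 had 0.60, 0.73 and 0.63. Without sample678 the first of these fell to 0.40 in batch 9_1 and the set parted into 6 genes around mCherry and 4 around Clec4e. Rela, EGFP and the inhibitor gene Nfkbie formed a set of their own. Rela and EGFP had 0.91, 0.52 and 0.72, and reads of the fusion transcript can count to Rela, so the pair is no measure of the endogenous gene. In batches scRNA and 9_1 both were lower in cells with more Cdk1, at -0.33 and -0.50 for Rela and -0.30 and -0.58 for EGFP, against 0.05 and 0.03 in batch 8_8.

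Among the smaller sets, Hspa5, Calr, Pdia3 and Pdia6, chaperones of the endoplasmic reticulum, formed one, and Hspa5 and Pdia3 had r of 0.54, 0.65 and 0.76. Msmo1, Hmgcs1 and Sqle, of sterol synthesis, were in another, with 0.56, 0.73 and 0.80 for Hmgcs1 and Msmo1. Psme2, Psmb10, Cyba and Sod2 formed a further set. Sets of 9 MHC class I genes around H2-K1 and H2-D1, of Eno1 and Gapdh with copies, and of 3 Bcl2a1 genes hold near-identical copies that can share reads, and their r is uncertain. Ccl3 and Ccl4, neighbours in a chemokine cluster, were linked at 0.74, 0.86 and 0.76 but to no larger set.

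**Figure D5:**
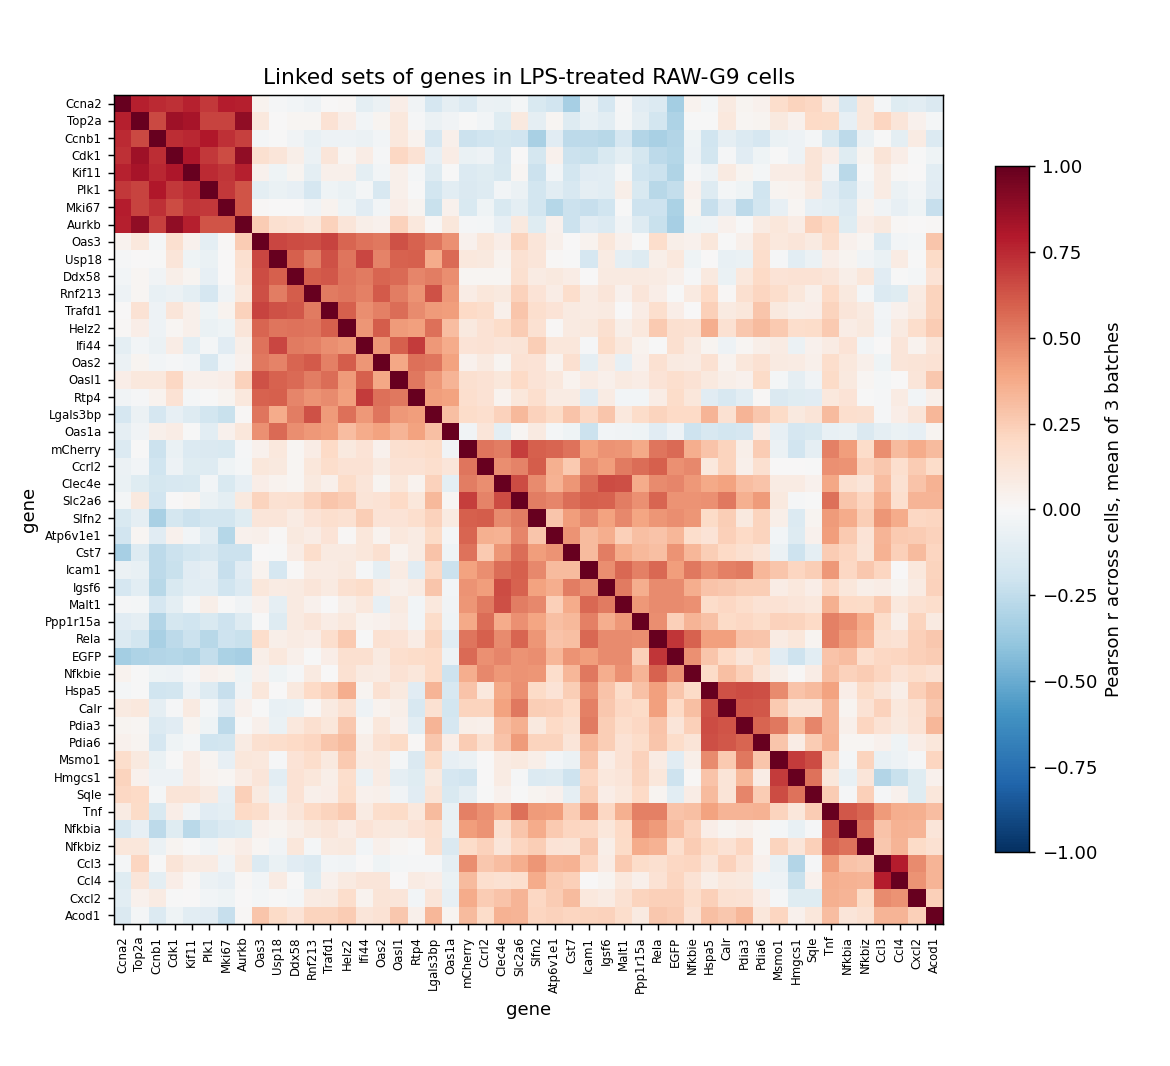
Pearson r across cells, averaged over 3 batches, for 8 mitotic genes of the largest set, genes of 5 other linked sets and 7 activation genes, with red for positive and blue for negative values on both gene axes. The mitotic genes, the interferon set and the mCherry set appear as separate blocks, and Tnf shares its highest values with Nfkbia and Nfkbiz.

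Promoters were read for the linked sets and for the genes that covaried with Tnf, as RefSeq sequence of build GRCm38.p6 from 250 bases before to 50 bases after the start. Motifs were searched on both strands. The cell cycle homology region, spelled TTTGAA, was in 10 of the 15 G2 and mitosis genes with a window (66.7%), against 14.4% of the genes entered and 20.2% of all genes. The CCAAT box, spelled CCAAT, was in 13 of them (86.7%), against 42.7 and 41.1%. Cdk1 (chr10:69352863-69353162, minus strand) and Ccnb2 (chr9:70421505-70421804, minus strand) held both motifs more than once. They are shown as members of the G2 and mitosis list, all 18 genes of which are in the largest set. Matches to either motif are in capitals, and a CCAAT box on the other strand reads ATTGG:
Cdk1: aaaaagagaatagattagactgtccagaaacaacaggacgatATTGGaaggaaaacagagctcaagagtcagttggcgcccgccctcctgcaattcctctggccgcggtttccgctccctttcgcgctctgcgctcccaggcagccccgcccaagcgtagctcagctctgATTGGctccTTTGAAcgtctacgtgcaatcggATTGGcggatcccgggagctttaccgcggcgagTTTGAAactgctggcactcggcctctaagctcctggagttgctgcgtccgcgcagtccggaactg
Ccnb2: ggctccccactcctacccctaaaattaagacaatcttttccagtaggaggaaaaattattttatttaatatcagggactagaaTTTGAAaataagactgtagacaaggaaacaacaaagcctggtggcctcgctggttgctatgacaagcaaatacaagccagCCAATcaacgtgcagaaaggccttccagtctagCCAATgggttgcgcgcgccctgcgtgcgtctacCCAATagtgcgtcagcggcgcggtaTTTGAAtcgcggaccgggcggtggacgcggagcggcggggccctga
Matches in the Cdk1 window began 71 and 15 bases before the start for the homology region, and those in the Ccnb2 window are its first and last runs of capitals, the last 4 bases after the start.

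The interferon-stimulated response element, spelled GAAA, any 2 bases and GAAA, was in 3 of 9 genes of the interferon set with a window (33.3%), Ddx58, Oas1a and Oas3, against 3.47% of the genes entered and 3.99% of all genes. Oas3 (chr5:120777610-120777909, minus strand) is shown for the best connected gene of that set, with the element in capitals, 75 bases before the start:
Oas3: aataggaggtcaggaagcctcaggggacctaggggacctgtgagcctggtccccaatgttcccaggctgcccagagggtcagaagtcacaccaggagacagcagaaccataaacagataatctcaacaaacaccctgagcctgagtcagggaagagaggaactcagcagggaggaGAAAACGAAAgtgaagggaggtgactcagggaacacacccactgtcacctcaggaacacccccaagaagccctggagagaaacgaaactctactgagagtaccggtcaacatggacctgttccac
Among Tnf and the 13 genes that covaried with it, 10 had a window, and 2 of these, Ccrl2 and Cxcl2, held the kappa B consensus, against 12.2% of the genes entered and 9.55% of all genes. It was in 3 of 9 genes of the interferon set and 1 of 9 of the mCherry set. The window of Tnf itself held no match. Cxcl2 (chr5:90903649-90903948, plus strand) is shown as a window with a match. So is Nfkbia (chr12:55492598-55492897, minus strand), which is outside the 13 genes but tracked Tnf in batches scRNA and 8_8. The consensus is in capitals:
Cxcl2: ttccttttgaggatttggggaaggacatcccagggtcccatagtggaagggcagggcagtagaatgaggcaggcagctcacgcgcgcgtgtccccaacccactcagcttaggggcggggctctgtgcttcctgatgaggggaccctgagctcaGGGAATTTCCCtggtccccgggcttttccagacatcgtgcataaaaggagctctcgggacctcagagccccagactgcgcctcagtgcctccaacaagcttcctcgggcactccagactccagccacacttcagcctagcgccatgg
Nfkbia: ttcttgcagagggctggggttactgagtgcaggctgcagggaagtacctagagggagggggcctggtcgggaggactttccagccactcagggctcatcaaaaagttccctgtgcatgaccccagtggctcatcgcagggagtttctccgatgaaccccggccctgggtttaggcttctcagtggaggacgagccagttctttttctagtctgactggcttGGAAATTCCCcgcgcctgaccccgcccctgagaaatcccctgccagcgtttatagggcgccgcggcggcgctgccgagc
The Cxcl2 matches, on opposite strands, overlapped and began 97 and 96 bases before the start, and the Nfkbia match began 29 bases before it. A match is a string of letters in the window and no measure of binding.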

How the data were processed

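Smart-seq2 libraries of LPS-treated RAW-G9 cells (88, 15 and 46 by batch) and IBA cells (93, 15 and 45) were analysed from the deposited table of read counts per gene. The authors had sequenced the libraries without molecular identifiers, aligned the reads with STAR 2.6.1c to GRCm38 after demultiplexing with bcl2fastq 2.19.1, and counted reads per gene with HTSeq without regard to strand, with EGFP and mCherry added to the annotation (tools per the submitters' processing notes and the study's methods). The ERCC spike-in dilution on the labels differs between batch scRNA and the other batches. Files of comparisons were not used.

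Here, the counts of 20 genes that the study had seen in its negative-control libraries and of 86 genes of ribosomal proteins were dropped, 13.4 to 39.6% of a cell's counts, and CPM scales the counts kept to 1000000. Total counts were 176393 to 1418783 per cell. No doublet caller was run. Exon lengths and coordinates are from a GENCODE annotation of GRCm38. Batch and cell are given by the labels. All 3 batches hold both states, and the block pairs sums of 1 labelled batch. The labels do not say that batches were separate cultures. The p-values measure only the spread between batch sums left after state and batch are fitted, with 1 estimate shared by all states in the fit. Sums per batch of the whole-cell states, without the experiment on IBA cells after Live-seq, entered edgeR 4.0.16 (filterByExpr minimum count 2, false discovery rate 0.05, log2 change over 1). Genes named are list members, the 10 largest excess spreads, the 10 highest and 10 lowest r with Tnf, the 10 largest rises over IBA, the transgenes, and, from values seen, genes of linked sets and the remaining called genes. The cells, lists and tests were chosen with earlier results of these data known. Scripts were tested on simulated data. Alternatives used DESeq2 1.42.0 and scran 1.30.0. Intervals are not given for single cells, and depth covers counting error only. Single genes of some lists and sets are not reported here. Ratios of summed counts were added after the data were seen.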

Additional observations from a re-analysis of the deposited data

How the results depend on the processing

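Of the alternatives tried on the main results, 22 moved the value. Some mean correlations of list scores changed sign when a batch was left out. That of cytokines and chemokines with G2 and mitosis, 0.01 by default, ran from -0.13 to 0.20 without a batch. Shares are percent of the genes entered by default. For spread, 1.41% of genes became 0.878% with a stricter minimum (50 CPM and 50% of cells) and 2.59% with the SD of log values, of which 42.3% were called by default. Called in only 2 batches, without the other, the share was 2.02 to 3.65%. For covariation with Tnf, positive genes were 0.274 to 2.65% without a batch, the highest without batch scRNA. Negative genes, 0.0137% by default, became 0 with a pseudocount of 1 on CPM, 0 in cells thinned to 100000 counts, 0 as a partial r given depth, genes detected and mitochondrial share, 0.0274% without sample678 and 0.0823 to 2.54% without a batch. Nfkbia was called positive in thinned cells and in the partial r. The 2597 linked pairs became 4380 with a pseudocount of 1 on CPM, 1459 in thinned cells, 1538 as partial r, 1156 with the stricter minimum and 4721 to 30260 without a batch. Against IBA, the fit with no replicate block called 1529 genes higher and 2748 lower. Without a batch, 1239 to 1837 genes were higher and 1959 to 3006 lower, the 1959 being without batch scRNA. Fewer batches must agree when 1 is left out, which raises the counts of spread and covariation by construction. The cause of the other shifts was not tested. Choices on sample678, sample532, linked pairs and the leading component were made after seeing the data. Batch 8_8 holds 15 cells and has the lowest median depth.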
